A study of Mus musculus with 2 samples.

Results

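Insm1, Insm2 and Gdf11 were described across the cell classes of the mouse retina, as 3 of the 32285 genes counted in each library. They were picked by symbol for the pattern they had shown in photoreceptors of these same libraries, so their levels and ratios below are a description and carry no test. The Mettl14-cKO library came from Mettl14 fl/fl mice with the transgene Chx10-Egfp/Cre, in which Cre recombinase fused to EGFP is driven by the Chx10 promoter in retinal progenitors. The control library came from mice that were Mettl14 fl/fl or fl/wt, for which the labels list no Cre. Both were made from dissociated retina at postnatal day 7, with 1 library per genotype. The number of animals pooled is not stated, so variation between animals could not be measured.

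Insm1 and Insm2 encode zinc finger proteins of the insulinoma-associated family. INSM1 acts as a transcriptional repressor in newborn neurons and endocrine cells, where it recruits the histone demethylase KDM1A and CoREST proteins through a short SNAG domain at its N terminus. GDF11 is a secreted ligand of the activin branch of the TGF-beta family, and in the developing mouse retina it is known to limit the time during which progenitors make ganglion cells. Rods and cones arise from progenitors that leave the cell cycle, pass through a precursor stage marked by OTX2 and then switch on phototransduction genes. METTL14, with METTL3, forms the methyltransferase that writes m6A (N6-methyladenosine) into messenger RNA, often in the sequence GGACT.

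Insm1 (ENSMUSG00000068154) lies on chromosome 2, chr2:146221921-146225020 on the plus strand of GRCm38 in the GENCODE vM21 annotation. Insm2 (ENSMUSG00000045440) lies at chr12:55599427-55602086 on the plus strand. Both genes have 1 exon, with 1563 and 1479 coding bases. Gdf11 (ENSMUSG00000025352) lies at chr10:128882295-128891718 on the minus strand and has 3 exons. No annotated gene overlaps any of the 3 on either strand, so no overlapping gene shares their reads.

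The 3 transcripts differed in how often they held GGACT. It did not occur in the 3100 bases of the Insm1 transcript, occurred 3 times in the 2660 bases of Insm2 and 8 times in the 4062 bases of Gdf11. Per kilobase that was 0 for Insm1, 1.13 for Insm2 and 1.97 for Gdf11, against a median of 1.02 over the longest coding transcripts of 21901 genes, of which 86.7% held the motif at least once. Among the 2511 transcripts within 10% of the length of Insm1, 4.70% had none. The shorter sequence GGAC was present 12 times in Insm1, 13 times in Insm2 and 24 times in Gdf11. A match describes the letters of a transcript and is not a methylated site, and m6A was not measured here. The coding matches are shown with 10 bases on either side and GGACT in capitals. They lie at chr12:55599592-55599616 in Insm2 and, on the minus strand, at chr10:128891297-128891321, chr10:128885410-128885434, chr10:128885356-128885380 and chr10:128885335-128885359 in Gdf11, in the order shown:
Insm2: gcccggtcggGGACTtttggggtcc
Gdf11, match 1: tgcagcctgaGGACTtcttggaaga
Gdf11, match 2: acctaggcctGGACTgcgatgaaca
Gdf11, match 3: ctctcacagtGGACTttgaggcttt
Gdf11, match 4: cttttggctgGGACTggatcatcgc

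After filters and doublet removal, 11865 Mettl14-cKO and 10575 control cells were kept, with medians of 3059 and 3386 unique molecular identifiers (UMIs, 1 per captured transcript) per cell. Levels are UMIs summed over all cells of a class in a library and scaled to a library total of 1000000 (CPM), with exact 95% Poisson intervals. These intervals, and those of ratios and shares, cover counting error only. Mettl14, the targeted gene, stood at 14.5 CPM in the Mettl14-cKO library (13.4 to 15.6; 705 UMIs) and at 27.3 in the control library (25.8 to 28.8; 1338 UMIs). In rod-like cells it stood at 18.3 and 34.5 CPM, a ratio of 0.529 (0.443 to 0.631). Which exons are floxed is not given in the labels, and the counted 3′ end may lie outside the deleted part. The libraries had 57 cell barcodes in common, 33 of them among the kept cells of both libraries.

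Cells were grouped into 33 clusters, with the 3 genes left out of the clustering, and named from marker genes. Neurogenic progenitor-like cells (cluster 15; 455 Mettl14-cKO and 197 control cells) carried Neurog2, Dll1 and Hes6. Photoreceptor precursor-like cells formed cluster 5 (929 and 270 cells) and cluster 4 (505 and 914 cells). Cluster 5 was high in Otx2 and low in rod markers, of which 12 summed to 7732 CPM in Mettl14-cKO and 5801 CPM in control, while in cluster 4 they summed to 21090.2 and 21301 CPM. Rod-like cells were held by different clusters in the libraries. Of 2205 Mettl14-cKO rod-like cells, 2058 lay in cluster 1, and of 3212 control rod-like cells, 2384 lay in cluster 0 and 738 in cluster 12. Cone-like cells (cluster 10; 398 and 451 cells) expressed all 12 cone markers but also carried rod RNA, with the rod markers at a sum of 29461 CPM in Mettl14-cKO and 35125 CPM in control. Cone-like values below are thus not free of rod transcripts.

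Insm1 was a gene of the photoreceptor lineage in both libraries and stood at like levels in the rods and cones of both. It had 92.7 CPM in Mettl14-cKO and 77.0 CPM in control neurogenic cells, a ratio of 1.20 (0.879 to 1.67) that was 2.47 (1.96 to 3.13) with each library clustered alone. In precursor cluster 5 it stood at 285 CPM in Mettl14-cKO (265 to 306; 724 UMIs) and 249 CPM in control (209 to 294; 139 UMIs). In precursor cluster 4 it reached 458 CPM in Mettl14-cKO and 397 CPM in control. The level thus climbed from neurogenic cells through the precursors in each library, and the intervals of the libraries overlapped at each of these stages.

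In rod-like cells Insm1 had 425 CPM in Mettl14-cKO (412 to 438; 4067 UMIs) and 426 CPM in control (415 to 437; 5896 UMIs). The ratio of Mettl14-cKO over control was 0.997, with an exact conditional interval of 0.958 to 1.04. In cone-like cells it had 355 CPM in Mettl14-cKO and 368 CPM in control, a ratio of 0.965 (0.908 to 1.03). These intervals leave room for differences of a few percent and include no difference. In precursor cluster 5 the ratio was 1.15 (0.955 to 1.38) and in cluster 4 it was 1.15 (1.01 to 1.31), while over both clusters together it was 0.912 (0.831 to 1.002), with the libraries filling the clusters in different proportions. The pooled precursor ratio of Insm1 ran from 0.737 to 1.08 under other filters and clusterings, on both sides of 1.

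In each library rod-like cells had the highest Insm1 level, cone-like and precursor-like cells came next with intervals that overlapped each other, and neurogenic cells followed far below. Rod-, cone- and precursor-like cells together held most of its UMIs, with 48.6%, 21.4% and 13.1% of the Mettl14-cKO total and 59.04%, 24.1% and 7.68% of the control total. Over all kept cells Insm1 stood at 172 CPM in Mettl14-cKO and 203 CPM in control, a ratio of 0.846 (0.822 to 0.871). Rod-like cells were 18.6% of Mettl14-cKO and 30.4% of control cells. When the Mettl14-cKO class levels were weighted by the control library's class shares, the sum came to 207 CPM, against 203 CPM in control.

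Insm2, the other family member, had overlapping intervals in precursor cluster 5 and stood higher in Mettl14-cKO in cluster 4, rods and cones. Neurogenic cells held few transcripts, 7 UMIs (4.13 CPM) in Mettl14-cKO and 2 UMIs (2.85 CPM) in control. In precursor cluster 5 Insm2 stood at 161 CPM in Mettl14-cKO (146 to 177; 409 UMIs) and 147 CPM in control (117 to 182; 82 UMIs), a ratio of 1.10 (0.864 to 1.41). This was its highest level among the photoreceptor stages in each library, and the 2 intervals overlapped.

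In precursor cluster 4 Insm2 had 105 CPM in Mettl14-cKO (83.7 to 129; 86 UMIs) and 31.0 CPM in control (22.9 to 41.0; 49 UMIs), a ratio of 3.38 (2.35 to 4.90). In rod-like cells it had 82.6 CPM in Mettl14-cKO (77.0 to 88.6; 791 UMIs) and 10.2 CPM in control (8.57 to 12.01; 141 UMIs), a ratio of 8.11 (6.77 to 9.77). In cone-like cells it had 57.7 CPM in Mettl14-cKO (51.3 to 64.7; 291 UMIs) and 5.50 CPM in control (3.85 to 7.61; 36 UMIs), a ratio of 10.5 (7.41 to 15.3). With finer clusters (Leiden resolution 2) the rod ratio was 16.05, and with each library clustered alone it was 15.8, while within single rod clusters it was 3.93 (cluster 0) and 4.04 (cluster 1). In Mettl14-cKO rods the Insm2 level was thus of the same order as in cluster 5, and in control rods it was not. The rod-like cells were not matched for rod RNA. The median share of their UMIs on 14 rod genes was 3.95% in Mettl14-cKO and 4.62% in control. In the 24 Mettl14-cKO cells of rod cluster 12, Insm2 had 21.5 CPM (3 UMIs). Within the control library Insm2 differed between the rod clusters, with 14.6 CPM (102 UMIs) in cluster 0 and 5.02 CPM (33 UMIs) in cluster 12.

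**Figure D1:**
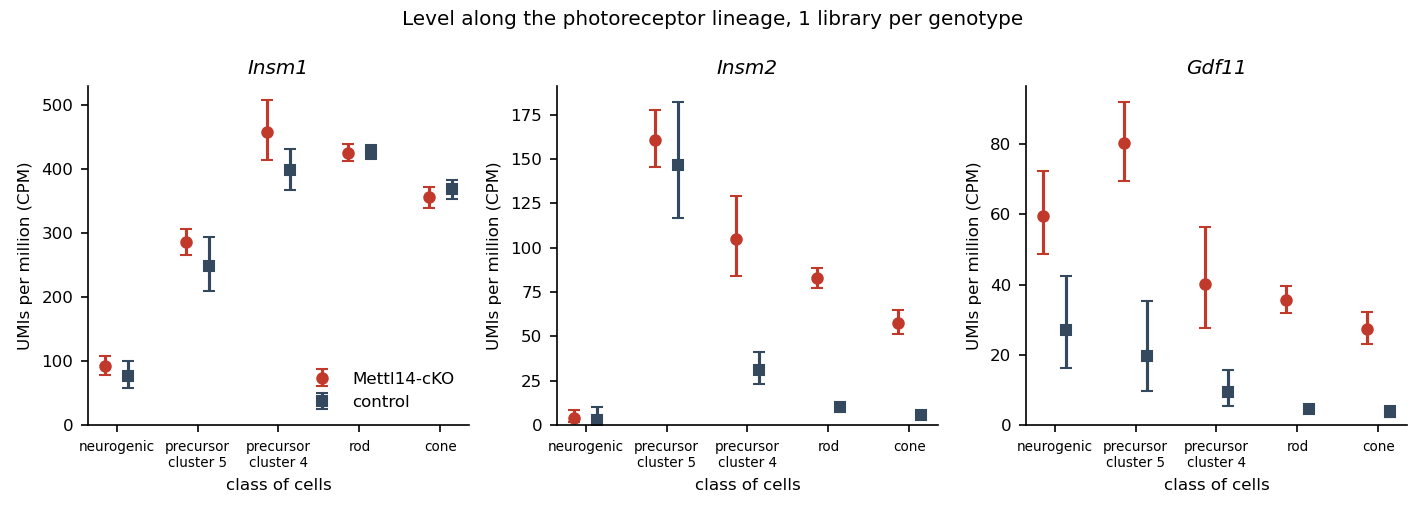
Level in CPM of each gene, in a panel of its own, in neurogenic progenitor-like cells, precursor clusters 5 and 4, rod-like and cone-like cells. Circles are the Mettl14-cKO library, squares the control library, and bars are exact 95% Poisson intervals. The Insm1 points of the libraries lie close together in every class, those of Insm2 are close in cluster 5 (161 and 147 CPM) and far apart in rods (82.6 and 10.2 CPM), and the Gdf11 points of Mettl14-cKO lie above those of control in every class.

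Gdf11 stood higher in the Mettl14-cKO library at every photoreceptor stage, neurogenic cells included. In neurogenic cells it had 59.6 CPM in Mettl14-cKO (48.6 to 72.5; 101 UMIs) and 27.1 CPM in control (16.3 to 42.3; 19 UMIs), a ratio of 2.20 (1.34 to 3.81). In precursor cluster 5 it had 80.3 CPM in Mettl14-cKO (204 UMIs) and 19.7 CPM in control (11 UMIs), a ratio of 4.08 (2.23 to 8.30). In precursor cluster 4 it had 40.2 CPM in Mettl14-cKO (33 UMIs) and 9.49 CPM in control (15 UMIs), a ratio of 4.23 (2.24 to 8.38). The intervals of the levels did not overlap at any of these stages, but the control precursors held few UMIs and the intervals of the 3 ratios overlapped. The control levels at these stages are also not told apart from a background taken in microglia-like cells, given below.

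In rod-like cells Gdf11 had 35.6 CPM in Mettl14-cKO (31.9 to 39.6; 341 UMIs) and 4.55 CPM in control (3.497 to 5.82; 63 UMIs), a ratio of 7.83 (5.97 to 10.4). Within rod cluster 0 the ratio was 1.79 (0.355 to 5.60), from 3 Mettl14-cKO and 42 control UMIs, and at resolution 2 and with each library clustered alone the rod ratio was 10.8 and 11.5. In cone-like cells it had 27.4 CPM in Mettl14-cKO (23.0 to 32.3; 138 UMIs) and 3.67 CPM in control (2.35 to 5.45; 24 UMIs), a ratio of 7.46 (4.81 to 12.04). The pooled precursor ratio of Gdf11 was 5.80, and 3.53 among barcodes with at least 2000 UMIs. Control rods and cones had the lowest Gdf11 levels of the 11 control classes of at least 50 cells, with intervals that overlapped each other. Control microglia, with 48 cells, were not among these classes and had 4.29 CPM (0.109 to 23.9; 1 UMI). That interval held the control rod and cone levels, which are thus not told apart from the microglia level. In Mettl14-cKO, rods and cones took places 8 and 9 of 13, and their intervals overlapped.

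Of the 3 genes, Insm2 and Gdf11 were at least 2-fold higher in Mettl14-cKO than in control rod-like cells, as were 5.8% of the 11916 genes measured there. The same 2 genes passed 2-fold in both precursor clusters pooled (ratios of 2.40 and 5.80), where 5.73% of 9946 genes did, and in cone-like cells, where 4.38% of 10867 genes did. In neurogenic cells Gdf11 passed 2-fold, where 6.15% of 7817 genes did, and Insm2 had too few UMIs for a ratio. Since the genes were picked for this pattern, nothing is read from these counts. Ordered by ratio from the highest, Insm2 and Gdf11 stood at places 30 and 32 of 11916 genes in rod-like cells, and at places 8 and 20 of 10867 in cone-like cells.

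Because the libraries differed in how much rod RNA their cells held, precursor- and rod-like cells were also pooled and split into 5 ranges, with equal numbers of cells, by the share of their UMIs that fell on 14 rod genes, with edges at 2.19, 3.30, 4.15 and 5.00%. Range 1 held 1039 Mettl14-cKO and 568 control cells, and range 5 held 414 and 1193. Between 2239 and 3700 cells lay within 1 percentage point of an edge, so the ranges are cuts through a continuum and not types. In the Mettl14-cKO library the Insm2 level in ranges 1 to 5 was 159, 115, 85.9, 62.0 and 35.1 CPM. In the control library it was 98.8, 29.4, 12.6, 7.01 and 3.44 CPM. It was lower with each step of rod RNA in both libraries. The ratios of Mettl14-cKO over control were 1.61 (1.32 to 1.98), 3.92, 6.84, 8.84 and 10.2 (5.76 to 18.9), and the interval of each excluded 1. Within range 1 the median rod-gene share was 1.12% in Mettl14-cKO and 1.40% in control cells, against 2.78% and 2.80% in range 2. The part of this difference in the range 1 ratio was not tested.

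Gdf11 had 74.7, 43.5, 36.6, 32.1 and 22.7 CPM in ranges 1 to 5 of the Mettl14-cKO library. In the control library it had 22.0, 9.35, 4.83, 1.97 and 3.64 CPM, from 27, 20, 15, 9 and 18 UMIs. The ratios were 3.39, 4.65, 7.58, 16.3 (8.19 to 36.9) and 6.22 (3.37 to 11.8), and the intervals of the last 3 overlapped. Insm1 had ratios of 0.916, 0.953, 0.916, 1.10 and 0.894 across the same ranges, with levels between 316 and 459.7 CPM in Mettl14-cKO and between 345 and 486 CPM in control. It was highest in range 4 of the Mettl14-cKO library and range 3 of the control library. Matching the range did not make the cells equal in every rod gene. Crx, a photoreceptor transcription factor, stood lower in Mettl14-cKO in each range, with ratios from 0.661 to 0.817.

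**Figure D2:**
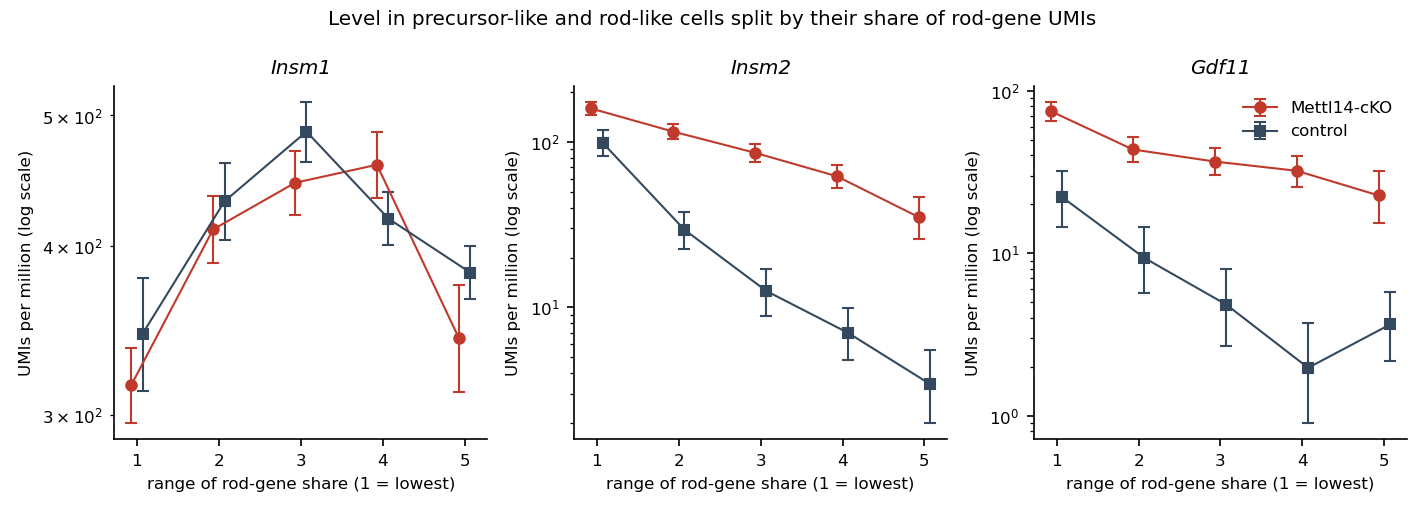
Level in CPM, on a log axis, of each gene in precursor-like and rod-like cells split into 5 ranges by their share of rod-gene UMIs (1 is the lowest). Circles are Mettl14-cKO, squares are control, and bars are exact 95% Poisson intervals. The Insm2 lines part from range 1 (159 and 98.8 CPM) to range 5 (35.1 and 3.44 CPM), while the Insm1 lines cross.

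Shares of cells were compared at equal depth. After each cell was thinned to 1500 UMIs, with shallower cells left out (277 Mettl14-cKO and 482 control rod-like cells), Insm1 was found in 45.4% of Mettl14-cKO rod-like cells (43.1 to 47.6%) and 45.3% of control rod-like cells (43.5 to 47.2%). Insm2 was found in 10.5% of Mettl14-cKO rod-like cells (9.15 to 11.9%) and 1.25% of control rod-like cells (0.864 to 1.74%). Gdf11 was found in 4.98% of Mettl14-cKO rod-like cells (4.05 to 6.05%) and 0.659% of control rod-like cells (0.391 to 1.04%). The unthinned shares, at median depths of 2664 and 2678 UMIs, were 67.7% and 67.4% for Insm1, 22.9% and 3.46% for Insm2, and 12.5% and 1.77% for Gdf11.

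Free RNA gives UMIs in cells that do not express a gene, so the same shares were taken in Müller glia-like cells as a background for the Insm genes. At 1500 UMIs Insm1 was found in 2.31% of Mettl14-cKO and 1.21% of control Müller glia-like cells, and Insm2 in 0.476% and 0.110%. The unthinned shares there were 5.53% and 5.03% for Insm1 and 1.07% and 0.290% for Insm2, with a median of 3310.0 UMIs per Mettl14-cKO cell and 3646.5 UMIs per control cell. The control rod share of Insm2 lay above the Müller glia interval of 0.00278 to 0.609%. It lay inside the wide interval of control microglia, of which 0 of 36 cells had Insm2 (0 to 9.74%). The control cone share of Insm2, 0.665% (0.137 to 1.93%), overlapped the Müller glia interval and is not told apart from background at this depth. The Mettl14-cKO cone share was 5.14% (3.17 to 7.83%). Microglia served as the background for Gdf11, with 3 of 77 Mettl14-cKO (3.90%, 0.811 to 10.97%) and 0 of 36 control cells (0 to 9.74%) at 1500 UMIs, at median depths of 7843 UMIs in Mettl14-cKO and 4248 in control before thinning. The Gdf11 share of Mettl14-cKO rods lay inside that wide interval, so by share alone it is not told apart from background. The levels did not overlap, with 35.6 CPM in Mettl14-cKO rods (31.9 to 39.6) and 8.24 CPM in Mettl14-cKO microglia (2.68 to 19.2; 5 UMIs). But these microglia were deeper than the rods (medians of 7843 and 2664 UMIs), and free RNA may be a smaller part of a deeper cell's UMIs. The levels thus do not place Gdf11 in Mettl14-cKO rods above background. Control microglia had 4.29 CPM (0.109 to 23.9; 1 UMI), an interval that held the levels of control rods (4.55 CPM) and control cones (3.67 CPM). Those control levels, on which the Gdf11 ratios in rods and cones rest, are thus not told apart from background. The same microglia interval held the control levels of precursor clusters 5 (19.7 CPM) and 4 (9.49 CPM). It also overlapped the interval of control neurogenic cells (16.3 to 42.3 CPM), so the Gdf11 ratios at those stages carry the same limit. Microglia had Insm1 in 6 of 77 Mettl14-cKO and 3 of 36 control cells. Neurogenic cells had Insm1 in 12.6% of Mettl14-cKO and 7.41% of control cells, Insm2 in 1.15% and 0.529%, and Gdf11 in 9.89% and 5.82%, with intervals that overlapped between the libraries for each gene. In each library their Insm1 interval lay above that of Müller glia-like cells, but the share lay inside the wide microglia interval (2.91 to 16.2% and 1.75 to 22.5%). Their Insm2 intervals overlapped those of Müller glia-like cells, so Insm2 there is not told apart from background. Nor is Gdf11 by share, since the shares of neurogenic cells lay inside the microglia intervals for that gene.

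**Figure D3:**
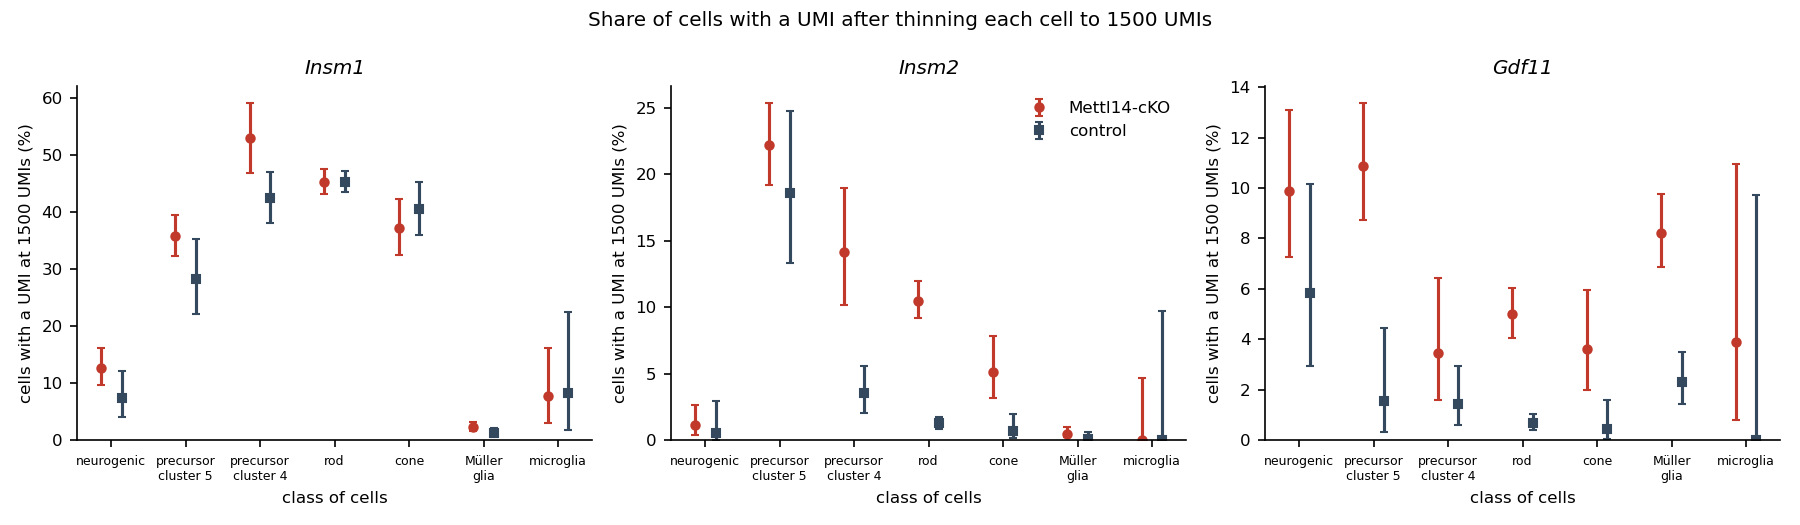
Percent of cells with at least 1 UMI of each gene after thinning every cell to 1500 UMIs, for the photoreceptor stages and for Müller glia-like and microglia-like cells. Circles are Mettl14-cKO, squares are control, and bars are exact 95% Clopper-Pearson intervals. Insm2 lies at 10.5% in Mettl14-cKO and 1.25% in control rods, against 0.476% and 0.110% in Müller glia-like cells.

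Insm2 and Insm1 were found in the same cells as well as in different ones. Among 1928 thinned Mettl14-cKO rod-like cells, 93 had both with or without Gdf11, 102 had Insm2 alone and 743 had Insm1 alone. Among 2730 thinned control rod-like cells, 23 had both with or without Gdf11, 11 had Insm2 alone and 1203 had Insm1 alone. All 3 transcripts were found together in 3 Mettl14-cKO and 0 control rod-like cells. At 1500 UMIs a transcript that is not found may still be present, so these counts do not separate kinds of rods.

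Outside the photoreceptor lineage the 3 genes differed from each other. Bipolar-like interneurons, which come from the same OTX2-positive precursors, had the highest Gdf11 level among classes of at least 50 cells in each library, with 114 CPM in Mettl14-cKO (107 to 120.4; 1148 UMIs) and 46.2 CPM in control (41.9 to 50.7; 436 UMIs), a ratio of 2.46 (2.20 to 2.75). Among the classes with at least 30 Insm1 UMIs over both libraries, they were the one in which Insm1 stood at least 2-fold higher, with 81.0 CPM in Mettl14-cKO and 38.1 CPM in control, a ratio of 2.13 (1.88 to 2.41). Insm2 had 13.3 CPM in Mettl14-cKO and 4.87 CPM in control bipolar-like cells, a ratio of 2.72 (1.93 to 3.89). All 3 genes thus passed 2-fold there, as did 5.51% of 12178 genes. Different clusters held the bipolar-like cells of the libraries, with clusters 6 and 3 the fullest in Mettl14-cKO (893 and 879 of 2766 cells) and clusters 8 and 14 in control (640.0 and 567 of 2105 cells).

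In Müller glia-like cells Gdf11 had 53.5 CPM in Mettl14-cKO (282 UMIs) and 18.4 CPM in control (69 UMIs), a ratio of 2.91 (2.23 to 3.84), where 6.77% of 11329 genes passed 2-fold. In amacrine-like interneurons it had 41.2 CPM in Mettl14-cKO (281 UMIs) and 34.2 CPM in control (187 UMIs), a ratio of 1.20 (0.998 to 1.46), and 3.4% of 11924 genes passed 2-fold. In ganglion-like cells it had 20.7 CPM in Mettl14-cKO and 16.7 CPM in control, a ratio of 1.24 (0.797 to 1.94). The interval of the amacrine ratio lay wholly below those of the bipolar, Müller glia and rod ratios. This does not cover cluster 7 (315 Mettl14-cKO and 708 control cells), left unnamed though it carried the amacrine markers Tfap2c, Gad2, Slc6a9, Slc32a1 and Pax6. Gdf11 had 79.7 CPM in Mettl14-cKO and 31.6 CPM in control there, a ratio of 2.52 (1.79 to 3.55), wholly above the amacrine-like interval. Mettl14 had a ratio of 1.09 (0.465 to 2.39) in cluster 7. Insm1 was low in amacrine-like cells, at 21.0 CPM in Mettl14-cKO and 24.2 CPM in control, and in ganglion-like cells, at 10.3 CPM in Mettl14-cKO and 11.45 CPM in control. Insm2 had 12 UMIs in 62 Mettl14-cKO and 14 UMIs in 54 control horizontal-like cells (16.9 and 12.8 CPM), which in control was its second highest class, with an interval that overlapped that of rods.

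**Figure D4:**
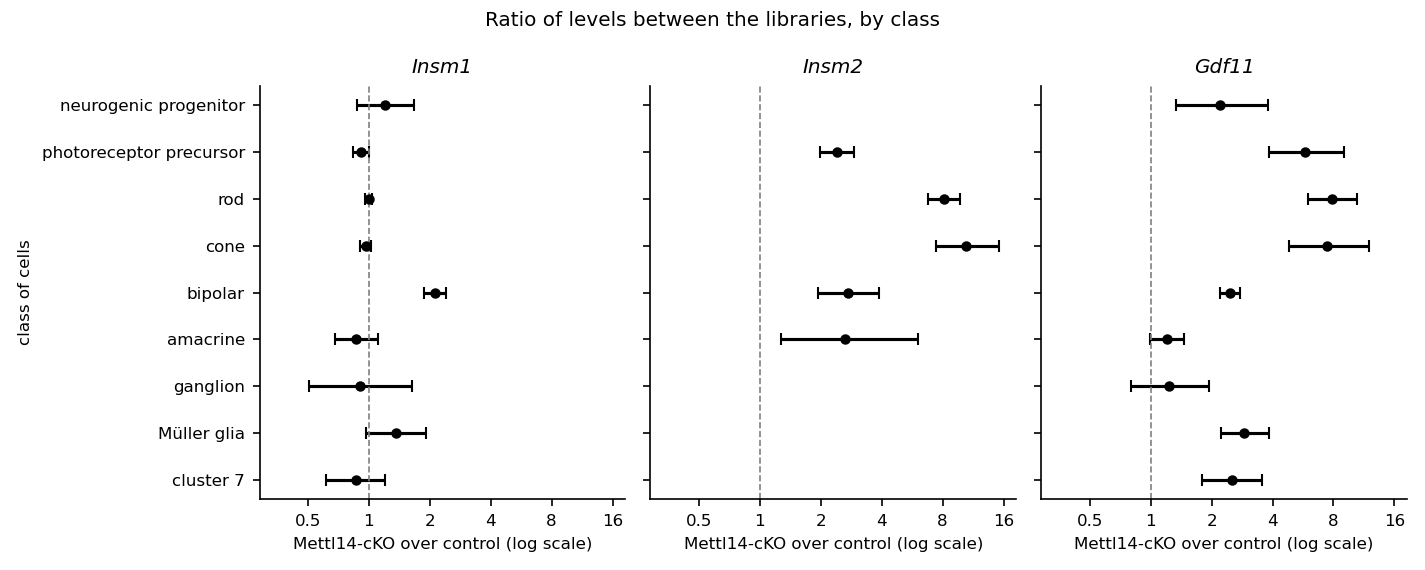
Ratio of the level in Mettl14-cKO over control, on a log axis, for 9 classes, with a point where the gene had at least 30 UMIs over both libraries (horizontal-like cells are not drawn). Bars are exact conditional 95% intervals and the dashed line marks a ratio of 1. Insm1 lies near 1 in rods (0.997) and at 2.13 in bipolar-like cells, Insm2 reaches 8.11 in rods and 10.5 in cones, and Gdf11 runs from 1.20 in amacrine-like cells to 7.83 in rods.

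The partners through which INSM1 represses genes were mostly at like levels in rod-like cells. Of 13 listed partners 11 were measured there, 1 was at least 2-fold higher and 0 at least 2-fold lower (5.8% and 3.83% of all genes), with a median log2 ratio of -0.19 against -0.05 over all genes. The one past 2-fold was Rcor2, a CoREST protein that joins KDM1A to SNAG-domain factors, with 30.3 CPM in Mettl14-cKO and 15.1 CPM in control, a ratio of 2.01 (1.67 to 2.41). Rcor2 also stood at 64.8 CPM in Mettl14-cKO and 26.6 CPM in control precursor-like cells (ratio 2.43), but its ratio was 1.57 (0.910 to 2.70) within cluster 4 and 1.75 (1.14 to 2.80) within cluster 5. In cone-like cells it stood at 28.0 CPM in Mettl14-cKO and 12.5 CPM in control. Kdm1a, the demethylase itself, had 203 CPM in Mettl14-cKO and 197 CPM in control rods, a ratio of 1.03 (0.972 to 1.09). Gse1 and Hmg20b, which encode subunits of KDM1A complexes, had ratios of 1.04 and 1.05.

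Among 20 listed genes of the GDF11 and activin branch, 11 were measured in rod-like cells, of which 2 were at least 2-fold higher and 0 at least 2-fold lower (5.8% and 3.83% of all genes), with a median log2 ratio of -0.03. These were Gdf11, which is itself on the list, and Inhbb, which encodes the activin beta-B subunit and had 38.3 CPM in Mettl14-cKO and 11.3 CPM in control, a ratio of 3.402 (2.81 to 4.13). The type II receptor gene Acvr2b stood at 79.5 CPM in Mettl14-cKO and 64.1 CPM in control (ratio 1.24), the type I receptor gene Tgfbr1 at 45.4 and 53.5 CPM (0.849), and Smad4, the shared signal transducer, at 101 and 133 CPM (0.758). Smad7, which encodes an inhibitor of the pathway, stood at 76.7 CPM in Mettl14-cKO and 36.9 CPM in control precursor-like cells, a ratio of 2.08 (1.61 to 2.71). Gdf11 and Smad7 were the 2 of 9 measured genes of the branch at least 2-fold higher there (5.73% of all genes). Within the clusters Smad7 had ratios of 1.62 (cluster 4) and 1.64 (cluster 5). In cluster 5, 1 of 9 genes was higher (Gdf11; 7.34% of all genes) and 1 lower (Smad2, a signal transducer, at 0.487; 3.22% of all genes).

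Of 18 listed genes of neurogenic exit, which are active as progenitors leave the cycle and include Insm1, 13 were measured in rod-like cells. There 5 of 13 measured genes were at least 2-fold higher and 0 at least 2-fold lower (5.8% and 3.83% of all genes), with a median log2 ratio of 0.51. Sox4 had 243 CPM in Mettl14-cKO and 100.05 CPM in control rods (ratio 2.43), Neurod4 had 142 and 65.8 CPM (2.15), Gadd45g had 35.7 and 15.5 CPM (2.31), Sox11 had 13.5 and 3.97 CPM (3.39) and Atoh7 had 3.03 and 1.23 CPM (2.47). Hes6 and Btg2, with many UMIs, stood at ratios of 1.54 and 1.09. In pooled precursor-like cells 5 of 13 were at least 2-fold higher (5.73% of all genes) with a median of 0.86, among them Atoh7 (13.7), Gadd45g (3.65), Mfng (3.47) and Sox11 (4.54). Within the clusters the medians were near 0. In cluster 4, 1 of 9 was higher (3.84% of all genes) with a median of -0.01, and in cluster 5, 4 of 13 were (7.34% of all genes) with a median of -0.04.

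Of 16 photoreceptor transcription factors 2 were at least 2-fold higher and 0 lower in rods (5.8% and 3.83% of all genes), Rxrg with 62.0 and 16.9 CPM and Sall3 with 2.61 and 0.578 CPM. Otx2 was at 595 CPM in Mettl14-cKO and 553 CPM in control rods (ratio 1.08) and Neurod1 at 1837 and 2055 CPM (0.894). Nr2e3 and Nrl, which encode factors that set rod identity, had ratios of 1.04 and 0.853. In pooled precursor-like cells Rxrg was at least 2-fold higher (2.06) and Samd11 at least 2-fold lower (0.463), where 4.32% of all genes were lower. Of the 14 rod genes that defined the ranges, 1 was at least 2-fold lower in rods, Gngt1 (0.483), and Sag and Pdc had ratios of 0.610 and 0.889. In pooled precursor-like cells 7 of the 14 were at least 2-fold lower (4.32% of all genes), with a median log2 ratio of -0.88. Within cluster 4, 1 was lower and 2 were higher (4.14% and 3.84% of all genes). Cluster 5 had the same counts (3.22% and 7.34% of all genes).

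Markers of other cell types were also counted in the rod-like cells. The 13 Müller glia markers summed to 807 CPM in Mettl14-cKO and 338 CPM in control rods, with Aqp4 at 0 in Mettl14-cKO, and to 1502 and 986 CPM in precursor-like cells. The 13 bipolar markers summed to 833 and 806 CPM in rods, and the 11 amacrine markers to 132 and 107 CPM, with none at 0. For Gdf11, whose level in Müller glia-like cells was 53.5 CPM in Mettl14-cKO and 18.4 CPM in control, and for Insm2, whose level there was 3.42 CPM in Mettl14-cKO and 0.801 CPM in control, their part in the result was not tested. Within cluster 0 alone, Insm2 had 57.4 CPM in 123 Mettl14-cKO cells (16 UMIs) and 14.6 CPM in 2384 control cells (102 UMIs), a ratio of 3.93 (2.17 to 6.70). Within cluster 1 it had 84.3 CPM in 2058 Mettl14-cKO cells and 20.9 CPM in 90 control cells (6 UMIs), a ratio of 4.04 (1.85 to 11.05). Gdf11 had 3 UMIs in the Mettl14-cKO cells of cluster 0 (10.8 CPM, against 6.01 CPM in control), a ratio of 1.79 (0.355 to 5.60), an interval on both sides of 1. In cluster 1 Gdf11 had 337 UMIs in Mettl14-cKO (36.8 CPM) and 0 UMIs in the 90 control cells. Taking 3 counts as the limit that 0 allows, the ratio there was 3.53 (1.20 to 17.2).

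The genes next to the 3 on the chromosome had ratios nearer to 1 than Insm2 and Gdf11. Ralgapa1, 810.0 bases from Insm2 on the opposite strand, had 62.9 CPM in Mettl14-cKO and 73.0 CPM in control rods, a ratio of 0.862 (0.778 to 0.954). Sarnp, nearest to Gdf11, had 179 CPM in Mettl14-cKO and 174 CPM in control rods, a ratio of 1.03 (0.965 to 1.09). Cfap61, nearest to Insm1, had 23.2 and 18.8 CPM.

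Across 18 profiles (9 classes in each library), the genes with patterns most like each of the 3 were ranked by Pearson correlation of log2(CPM + 1) among 12614 genes. The profiles of a library share its depth and preparation, so the values are given as a description. Insm1 was most like Glcci1 (r = 0.977), Trak2 (0.971) and Dgkd (0.967), followed by Zranb1, Jarid2, Trip12, Abcf1, Zfp444, Tet3 and Snhg15. Insm2 was most like Nfkbia (0.951), Ccdc175 (0.924) and 4921504A21Rik (0.917), followed by Klhl33, Slc16a8, Tmem86a, L3hypdh, Rasl11a, Slc25a33 and Vps50. Gdf11 was most like Pcdhb14 (0.940), Apex1 (0.912) and Trim13 (0.903), followed by Tmem200c, Zfp30, Mrfap1, Bax, Zfp637, Igdcc4 and Fam136a. Among themselves, Insm1 and Insm2 had r = 0.800, Insm2 and Gdf11 0.138, and Insm1 and Gdf11 -0.264.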

How the data were processed

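Single-cell RNA was measured in dissociated mouse retina, with 1 library per genotype. Each deposited matrix gives, for every barcode, whole-number UMI counts by gene, which the authors made with Cell Ranger 6.1.1 on mm10, per the submitters' processing notes. The tables list 15319 Mettl14-cKO and 13287 control barcodes, of which the shallowest has 500 UMIs.

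Barcodes were kept with at least 1000 UMIs, 500 genes and at most 15% mitochondrial UMIs. Scrublet in scanpy 1.11.5 then marked 11.98% of Mettl14-cKO and 6.92% of control barcodes as doublets, which were removed. The kept cells held 48637433 and 49098916 UMIs. Both libraries were clustered together (2000 variable genes without the 3 genes, 30 principal components, 20 neighbours, Leiden resolution 1, leidenalg 0.10.2), with no batch correction. Clusters were named from 152 markers in 15 lists. Ratios of CPM were formed for genes with at least 30 UMIs over both libraries, and a gene was called past 2-fold by its ratio alone. Intervals are exact (scipy 1.17.1). With 1 library per genotype no test was possible. Named by rule are the 3 genes, Mettl14, the members of 5 gene lists past 2-fold or among the 3 with the most UMIs, and the 10 genes most like each. Other genes, such as chromosomal neighbours and Aqp4, were named after their values were seen. Some list members are not reported here. The members and lists were chosen with earlier results of these data known. The calculation of ratios and their intervals was tested on simulated counts with known folds. Clustering, naming, doublet calls, thinning and the rod-gene ranges were not tested in this way.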

Additional observations from a re-analysis of the deposited data

How the results depend on the processing

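No paired analysis was possible because each genotype has 1 library, and for the same reason no replicate could be left out. Of 88 recomputed ratios, 75 stayed within the counting interval of the reported ratio. The ratio of Mettl14-cKO over control for Insm1 in precursor-like cells was 1.08 with doublets kept, 1.06 with at least 2000 UMIs per cell, 0.792 at resolution 2, 0.737 with each library clustered alone and 1.01 with another Scrublet seed, an alternative chosen after seeing the data that marked 4.24% of Mettl14-cKO and 6.87% of control barcodes as doublets, so its side of 1 is not settled. In precursor-like cells Insm2 was 3.59 at resolution 2 and 3.69 clustered alone, and Gdf11 was 3.53 with at least 2000 UMIs. In rod-like cells Insm2 was 16.05 at resolution 2 and 15.8 clustered alone, and Gdf11 was 10.8 and 11.5. Insm1 in neurogenic cells was 2.47 clustered alone. Among genes with at least 100 UMIs, the share of all genes at least 2-fold higher was 3.73% in precursor-like, 2.74% in cone-like and 3.16% in neurogenic cells. Under scaling to total UMIs the median log2 ratio of the genes used for median-of-ratios scaling was -0.12 in neurogenic and -0.11 in precursor-like cells, so that scaling raised the ratios there, that of Insm1 to 1.30 and 0.987. The cause was not tested. Depth limits Insm2 in neurogenic cells and Gdf11 in control photoreceptors, which rest on few UMIs.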
